A study of Mus musculus with 8 samples.

Results

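A block of mouse chromosome 1 carries 7 pseudogenes, Gm29216, Gm28661, Gm10925, Gm28437, Gm28438, Gm10222 and Gm28439, that are near-identical to mitochondrial genes, and they were 7 of the 55401 genes listed for each dish. They were chosen by their position in this block and their match to a mitochondrial gene, and their TPM levels (transcript abundance scaled by transcript length to the same total in every dish) and their differences between control and exposed dishes were already known when they were chosen, so both are described here without a test. RNA-sequencing was performed on AML12 cells, a hepatocyte line derived from mouse liver. The control group held 4 dishes that received no exposure, and the Opti-ELF-WMF group held 4 dishes exposed for 1 h to pulses of an extremely low-frequency, weak magnetic field with a peak of 100 mG, a pulse width of 4 msec and a repetition rate that went from 1 to 8 Hz. By the study's general methods, control and exposed cells were prepared together from a single batch of AML12 cells. The controls were kept in another incubator of the same model with the stimulator off, so incubator and exposure cannot be told apart. The methods do not say whether all RNA-sequencing dishes shared 1 batch. The numbered samples are taken here as separate dishes. If they shared 1 batch, the spread between them covers culture and library handling within that batch only. Libraries were made from polyadenylated RNA with a stranded kit and read as pairs of 150 bases.

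Mitochondrial DNA encodes subunits of the electron transport chain and of ATP synthase: Nd proteins belong to complex I, cytochrome b to complex III, Co proteins to complex IV and Atp proteins to ATP synthase. Over evolution, fragments of mitochondrial DNA have been inserted into nuclear chromosomes, where they are known as nuclear mitochondrial segments and are mostly not thought to make protein, in part because mitochondria read some codons differently from the nucleus. A young insertion can be so similar to its source that a short read from either one matches both.

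In the GENCODE M21 annotation of the GRCm38 (mm10) build, the 7 copies lay within chr1:24611535-24616197 on the minus strand, a block of 4663 bases, and each was annotated as an unprocessed pseudogene, a gene copy that was not made from a processed mRNA. In the direction of transcription they followed the order of the mitochondrial genome: Gm29216 for mt-Co1, Gm28661 for mt-Co2, Gm10925 for mt-Atp6, Gm28437 for mt-Co3, Gm28438 for mt-Nd3, Gm10222 for mt-Nd4l and Gm28439 for mt-Nd4. The spacing was also the same. The first 5 copies lay at the same distances from each other as their sources on the mitochondrial genome, and Gm10222 and Gm28439 were offset by 1 base. The map of the block shows that the copy of mt-Co1 begins inside the gene and the copy of mt-Nd4 stops inside it.

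**Figure D1:**
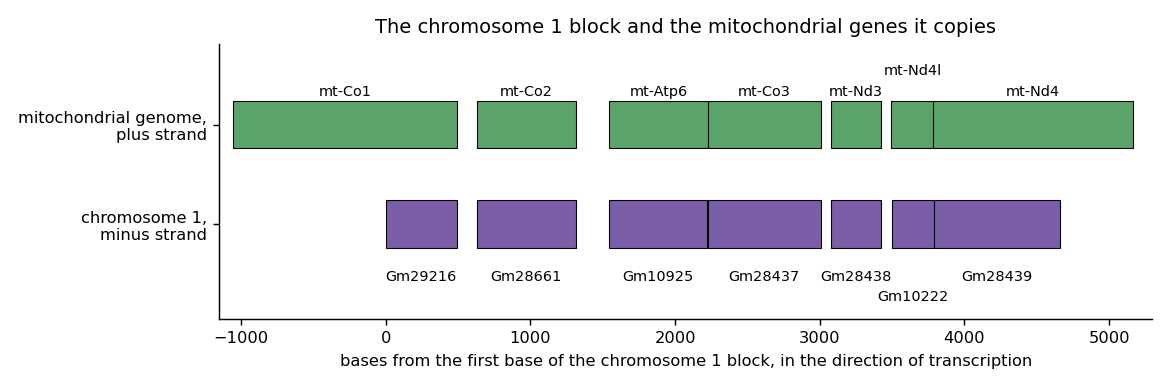
Annotated extent of the 7 copies (lower row, violet, minus strand of chromosome 1) and of the mitochondrial genes they match (upper row, green, plus strand), with the horizontal axis in bases from the first base of the 4663-base block in the direction of transcription. The 7 copies follow their sources in the same order, Gm29216 lacks the first part of mt-Co1, and Gm28439 lacks the last part of mt-Nd4.

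Of the 7 copies, 5 had no base that differed from the matched stretch of the mitochondrial gene. They are shown here at their 3′ sides, where the annotated copies end before their sources. Of these 5, 4 end just before the stop codon, and the remaining one ends inside the gene. These are ends of the annotation, and bases of the chromosome outside the annotated copies were not compared. In each pair below, read 5′ to 3′, capitals mark the bases of the mitochondrial gene that come after the last base of the copy. The lines for Gm28661 (chr1:24614885-24614917, minus strand) and mt-Co2 (chrM:7661-7696, plus strand) show the last 33 bases of the copy and the TAA stop codon that only the mitochondrial annotation includes.
Gm28661: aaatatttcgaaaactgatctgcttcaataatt
mt-Co2: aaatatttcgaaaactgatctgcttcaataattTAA
The same stop codon was absent from the annotated Gm10925 (chr1:24613974-24614006) beside mt-Atp6 (chrM:8572-8607).
Gm10925: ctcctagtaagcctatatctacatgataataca
mt-Atp6: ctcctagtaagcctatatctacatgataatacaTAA
It was also absent from the annotated Gm10222 (chr1:24612407-24612439) beside mt-Nd4l (chrM:10138-10173). The chromosome itself carries this codon, because Gm28439 overlaps the end of Gm10222 and matches mt-Nd4 there.
Gm10222: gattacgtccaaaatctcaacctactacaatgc
mt-Nd4l: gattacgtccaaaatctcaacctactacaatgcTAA
The annotated Gm28437 (chr1:24613189-24613223) lacked only the single T with which the annotated mt-Co3 ends (chrM:9355-9390). That T is the first base of a stop codon that the poly(A) tail completes.
Gm28437: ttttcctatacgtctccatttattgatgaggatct
mt-Co3: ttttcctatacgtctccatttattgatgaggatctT
Gm28439 (chr1:24611535-24611564) ended at base 876 of the 1378 bases of mt-Nd4 (chrM:11013-11048), so the capitals here are the first bases of a long part that the copy lacks.
Gm28439: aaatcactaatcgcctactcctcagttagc
mt-Nd4: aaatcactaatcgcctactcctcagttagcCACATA

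The other 2 copies differed from their sources near the 5′ end, and capitals in the next lines mark the bases that differ. Positions are counted from 1 at the 5′ end of the mitochondrial gene, with the mitochondrial base first. Gm28438 (chr1:24613084-24613119) carried T3C against mt-Nd3 (chrM:9459-9494).
Gm28438: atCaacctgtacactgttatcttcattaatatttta
mt-Nd3: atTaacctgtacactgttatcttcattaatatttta
Gm29216 (chr1:24616162-24616197) carried T1056A, C1057T, A1059G, A1060G, C1062A and A1066T against mt-Co1 (chrM:6381-6416), all within its first 13 bases, and was identical from there to the end of the gene.
Gm29216: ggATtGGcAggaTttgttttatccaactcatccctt
mt-Co1: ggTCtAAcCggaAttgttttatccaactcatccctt

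How much a read of this length can tell the pairs apart was described by cutting each transcript into all its windows of 150 bases. A window stands for a single untrimmed read. The second read of a pair, which can fall in a part that only the mitochondrial gene has, was not taken into account. Every window of Gm28661 (532 of 532), Gm10925 (529 of 529), Gm28437 (634 of 634), Gm10222 (145 of 145) and Gm28439 (727 of 727) was found unchanged in the mitochondrial gene, as were 193 of 196 windows of Gm28438 and 330 of 343 of Gm29216. Seen from the mitochondrial side, only 3 of 535 windows of mt-Co2, 3 of 532 of mt-Atp6, 1 of 635 of mt-Co3, 6 of 199 of mt-Nd3 and 3 of 148 of mt-Nd4l were absent from the copy. The truncated pairs were different, with 502 of 1229 windows of mt-Nd4 and 1066 of 1396 of mt-Co1 found in the mitochondrial gene and not in its copy. The other 6 mitochondrial mRNAs, mt-Nd1, mt-Nd2, mt-Nd5, mt-Nd6, mt-Cytb and mt-Atp8, shared 0 windows with annotated nuclear transcripts. For mt-Atp8 (chrM:7766-7969) this has a limit. Its end overlaps the start of mt-Atp6 (chrM:7927-8607), which Gm10925 matches, by less than a window. Bases of chromosome 1 between the annotated copies were not compared. TPM values of the 7 copies are therefore uncertain as measures of transcription from chromosome 1, and those of their counterparts are uncertain for the same reason.

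Annotated nuclear copies outside the block were less alike. There were 11 nuclear transcripts with at least 95% identity to a mitochondrial mRNA over at least 80% of their length. The 7 of the block had 99.7% to 100% identity over the stretch that was aligned. For Gm29216 this stretch was 483 of its 492 bases and left out most of its 6 differing bases. The nearest of the others was Gm13340 on chromosome 2, with 97.6% identity to mt-Co1 over 1545 bases. Among the other 4, only Gm13341, a copy of mt-Co2 on chromosome 2, shared any window of 150 bases with a mitochondrial mRNA (24 of 523).

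The mean levels of the 7 copies in control dishes ran from 12.5 to 14882 TPM, and 6 of 7 had lower means in exposed than in control dishes. In control dishes 1 to 4, Gm28661, the copy of the mt-Co2 subunit of complex IV, was at 15167, 14950.5, 15091 and 14318 TPM, and in Opti-ELF-WMF dishes 1 to 4 it was at 11905, 10453, 12027 and 12994 TPM. All exposed dishes lay below all control dishes, by 0.33 ± 0.06 (log2 scale, SE) between means of 14882 ± 386 and 11845 ± 1048 TPM (SD, n = 4). Gm10925, the copy of the ATP synthase subunit mt-Atp6, was at 14505, 14437, 14543 and 13837 TPM in control dishes and at 11511, 9708, 11805 and 12243 TPM in exposed dishes. Its groups did not overlap either, with a log2 difference, exposed minus control, of -0.35 ± 0.06 (SE). Gm28437, the copy of the complex IV subunit mt-Co3, was at 12022, 11440, 11484 and 10794 TPM in control dishes and at 9333, 7902, 9858 and 9655 TPM in exposed dishes. It again had every exposed dish below every control dish, with a log2 difference of -0.32 ± 0.07. TPM is a share of a fixed total, so less of these RNAs per cell, fewer cells that contain them and more of other RNA cannot be told apart.

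The copies of the complex I genes were lower in level and more varied than Gm28661, Gm10925 and Gm28437. Gm28438, the copy of mt-Nd3, was at 3829, 4291, 4605 and 4010 TPM in control dishes and at 3673, 2683, 3595 and 3604 TPM in exposed dishes, a log2 difference of -0.31 ± 0.10 with no overlap between groups. Without Opti-ELF-WMF dish 2 the difference was -0.20. Gm10222, the copy of mt-Nd4l, was at 4901, 4810, 6657 and 5699 TPM in control dishes and at 4254, 3947, 5073 and 4904 TPM in exposed dishes. Its groups overlapped, since exposed dishes 3 and 4 were above control dish 2, and the log2 difference of -0.27 ± 0.11 was -0.18 without control dish 3. Gm28439, the truncated copy of mt-Nd4, was listed near the bottom of the range, at 13.9, 10.9, 13.7 and 11.7 TPM in control dishes and at 8.9, 8.02, 13.1 and 6.19 TPM in exposed dishes. Exposed dish 3 lay within the control range, and the log2 difference was -0.47 ± 0.18.

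Gm29216, the copy of the last part of the complex IV gene mt-Co1, was the exception in direction. It was at 1330, 1219, 931 and 692 TPM in control dishes and at 1312, 1440, 870 and 1202 TPM in exposed dishes. The groups overlapped almost fully, and the log2 difference of 0.23 ± 0.21 was close to its SE. It was 0.05 without control dish 4, the lowest of the group, 0.36 without control dish 1, 0.14 without Opti-ELF-WMF dish 2 and 0.38 without Opti-ELF-WMF dish 3.

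TPM is scaled by transcript length, but the level listed for a copy also depends on how reads were divided within its pair, so the order of the copies describes the listed values. The order Gm28661, Gm10925, Gm28437, Gm10222, Gm28438, Gm29216, Gm28439 from high to low held in 8 of 8 dishes. Gm28661 and Gm10925 had overlapping ranges of TPM in both groups, and Gm10925 and Gm28437 overlapped in the exposed group only. The other neighbours in this order were separated in both groups. Summed, the 7 copies made up 5.14% ± 0.16 (SD, n = 4) of all TPM in control dishes and 4.15% ± 0.37 in exposed dishes, and the exposed sum was lower by 0.31 on the log2 scale, with no overlap. The gene next to the block with a clear level, Lmbrd1, which encodes a lysosomal membrane protein involved in vitamin B12 handling, lay 62433 bases away and was at 41.6 to 48.5 TPM over the 8 dishes. The other 3 annotated genes within 200 kb, Col19a1, Gm26418 and Tubb4b-ps2, were at 0 to 0.3 TPM.

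**Figure D2:**
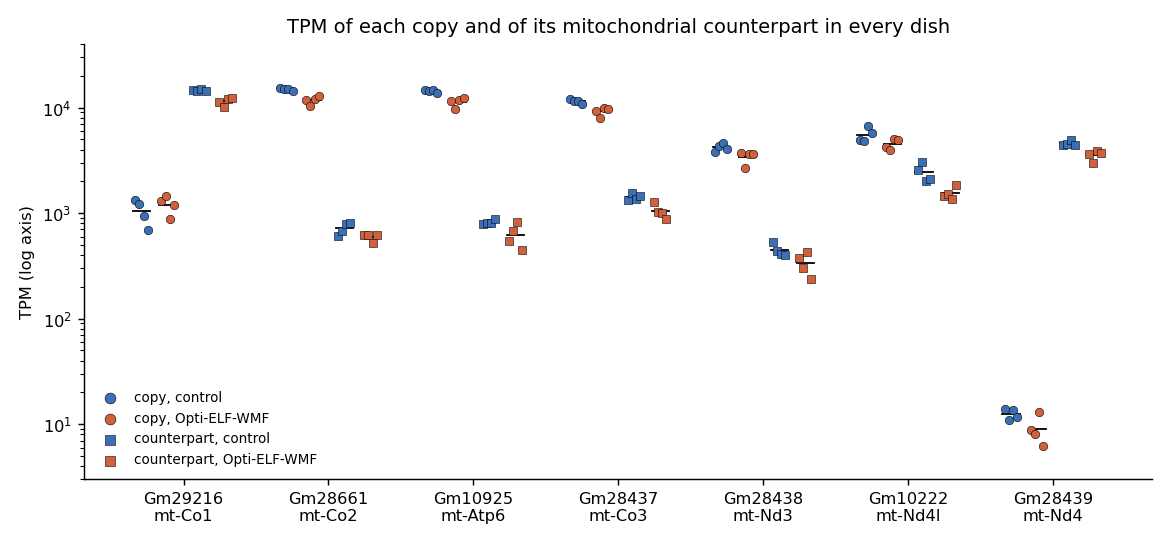
TPM (log axis) of each copy (circles) and of its mitochondrial counterpart (squares) in the 4 control dishes (blue) and the 4 Opti-ELF-WMF dishes (orange), with horizontal bars at the group means. The copy lies above its counterpart in 8 of 8 dishes for 5 pairs and below it in 8 of 8 dishes for Gm29216 and Gm28439.

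For 5 pairs the larger value was listed under the pseudogene. mt-Co2 was at 605, 680, 782 and 800.4 TPM in control dishes and at 622, 618, 516 and 620.2 TPM in exposed dishes, so that Gm28661 held 95.4% ± 0.64 (SD, n = 4) of the TPM of its pair in control and 95.2% ± 0.62 in exposed dishes. mt-Atp6 was at 787, 806, 807 and 877 TPM in control dishes and at 542, 676, 825 and 444 TPM in exposed dishes, and Gm10925 held 94.6% ± 0.37 and 94.7% ± 1.51 of its pair. Both counterparts had overlapping groups, mt-Co2 through control dish 1 and mt-Atp6 through Opti-ELF-WMF dish 3. Gm28438 held 90.3% ± 1.77 and 90.9% ± 2.00 of its pair with mt-Nd3, and Gm28437 held 88.9% ± 0.99 and 89.7% ± 1.80 of its pair with mt-Co3. Gm10222 held 69.2% ± 7.10 of its pair with mt-Nd4l in control and 74.6% ± 2.91 in exposed dishes, with control dishes 1 to 4 at 65.8%, 61.0%, 76.7% and 73.2%. The difference of 5.41 points was smaller than the SD of the control dishes, and it was 2.69 points without control dish 2.

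In the 2 truncated pairs most TPM was listed under the mitochondrial gene. Gm28439 held 0.273% ± 0.032 (SD, n = 4) of its pair with mt-Nd4 in control and 0.254% ± 0.072 in exposed dishes. Gm29216 held 8.29%, 7.78%, 5.85% and 4.64% of its pair with mt-Co1 in control dishes and 10.3%, 12.5%, 6.73% and 8.93% in exposed dishes. These 2 groups overlapped as well. No dish had a truncated copy above 12.5% of its pair. No dish had any of the 5 copies annotated without the last 1 to 3 bases below 61.0%. Over all 7 pairs, the copies held 67.2% ± 0.50 of the summed TPM of copies and counterparts in control dishes and 68.4% ± 0.51 in exposed dishes, and the groups overlapped by a small margin, with exposed dish 2 at 67.76% and control dish 3 at 67.80%.

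**Figure D3:**
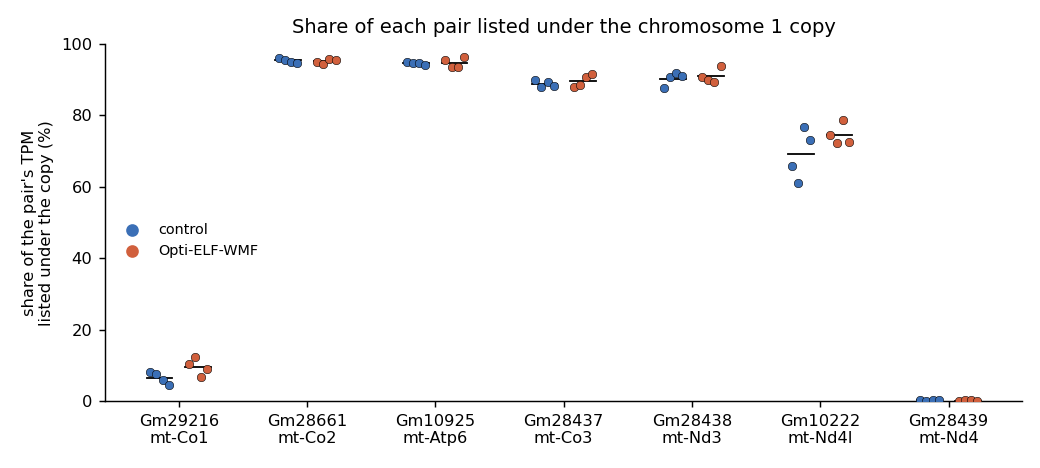
Share of the summed TPM of each pair that was listed under the chromosome 1 copy, in percent, in the 4 control dishes (blue) and the 4 Opti-ELF-WMF dishes (orange), with bars at the group means. The 5 copies annotated without the last 1 to 3 bases lie at 61.0% or more in every dish. Both truncated copies lie at 12.5% or less, and the control and exposed ranges overlap for each pair.

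Summing each copy with its counterpart brought the mitochondrial genes closer together in level. Under the mitochondrial names alone, the 3 complex IV subunits mt-Co1, mt-Co2 and mt-Co3 were at 14593 ± 320, 717 ± 91.1 and 1429 ± 102 TPM (SD, n = 4) in control dishes, a 20.4-fold range. With their copies added they were at 15636 ± 501, 15598 ± 335 and 12864 ± 460 TPM, a 1.22-fold range. Each TPM is scaled by the length of its own transcript. Gm29216 (492 bases) and Gm28439 (876) are shorter than mt-Co1 (1545) and mt-Nd4 (1378), so a read weighs more in their TPM. The sums and shares of these pairs were not corrected for this. Over the 7 counterparts the range of control means was 32.7-fold alone and 3.40-fold with the copies. The ATP synthase subunit mt-Atp6 went from 819 ± 39.7 to 15150 ± 294 TPM, and the complex I subunits mt-Nd3, mt-Nd4l and mt-Nd4 were at 4630 ± 305, 7948 ± 519 and 4603 ± 261 TPM with their copies. Among the 6 mitochondrial mRNAs that share no window, levels in control dishes ran from 2608 TPM for mt-Nd5 to 37359 TPM for mt-Atp8.

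For most pairs the sum differed less between dishes of a group than either of its parts, in 6 of 7 pairs in control and 6 of 7 in exposed dishes. The exceptions were mt-Co1 in control dishes, with a coefficient of variation of 2.19% alone and 3.20% in the sum, and mt-Nd4 in exposed dishes, with the same value to the first decimal (11.2%). In control dishes the coefficient of variation was 2.32% to 27.6% over the 7 copies, 2.19% to 20.1% over the counterparts and 1.94% to 6.58% over the pair sums. In exposed dishes these ranges were 8.85% to 32.4%, 8.57% to 26.6% and 6.46% to 13.4%. The 6 mRNAs without an annotated copy in the block had 1.93% to 8.44% in control and 8.68% to 14.8% in exposed dishes. The lowest exposed dish was Opti-ELF-WMF dish 2 for 7 of 7 pair sums, for 5 of 7 copies and for 2 of 7 counterparts.

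**Figure D4:**
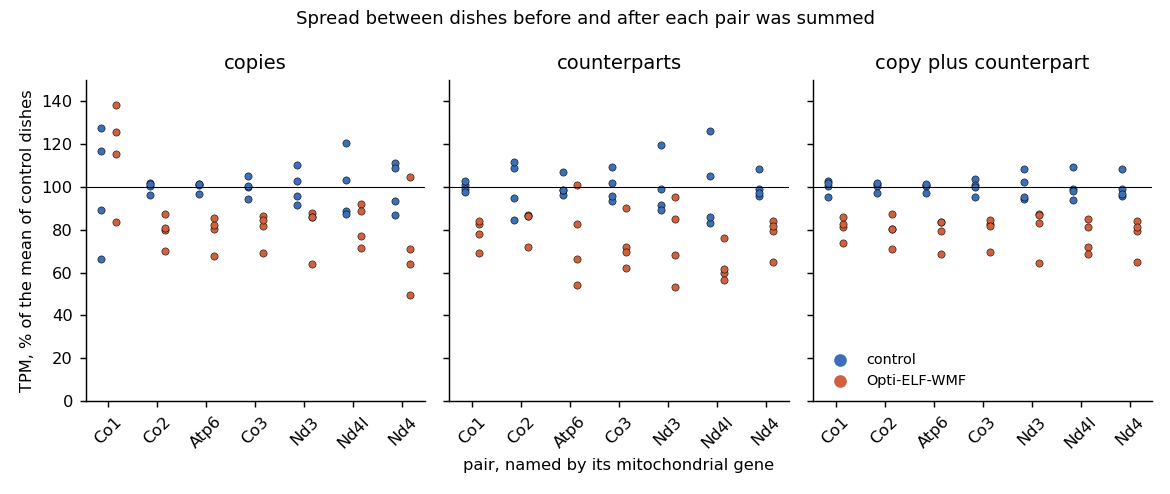
TPM of the copies (left), the counterparts (middle) and their sums (right) in each dish, as a percentage of the mean of the 4 control dishes (horizontal line), with control dishes in blue and Opti-ELF-WMF dishes in orange. The 2 groups overlap for 3 copies and 3 counterparts, whereas every exposed dish lies below every control dish for 7 of 7 sums.

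Whether the 1 h exposure was accompanied by a difference in these genes was then described for copies, counterparts and sums side by side. In limma, fitted to log2(TPM + 1) of the 12122 genes with at least 1 TPM in at least 4 dishes, 0 genes (0%) had an adjusted p under 0.05, and 1894 genes had an unadjusted p under 0.05, of which 443 (3.65% of all tested) were lower and 1451 higher in exposed dishes. All 7 copies passed this filter and none was called. Every exposed dish was below every control dish for 4 of 7 copies, against 225 of 12122 genes tested (1.86%), and above for 0 of 7, against 971 (8.01%). As the copies were chosen with this contrast known, nothing is read from these counts. The same holds for the counts without overlap of counterparts, sums and other mitochondrial mRNAs, which stand beside the same 1.86%. The median log2 difference was -0.32 over the copies and 0.03 over all genes tested.

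Among the counterparts, mt-Co1, mt-Co3, mt-Nd4l and mt-Nd4 had no overlap between groups, and mt-Co2, mt-Atp6 and mt-Nd3 overlapped. Their log2 differences ran from -0.64 ± 0.13 (SE) for mt-Nd4l to -0.27 ± 0.09 for mt-Co2, a span of 0.38, and those of mt-Atp6 and mt-Nd3 went from -0.43 to -0.29 and -0.28 without Opti-ELF-WMF dish 4. The log2 differences of the copies ran from -0.47 to 0.23, a span of 0.70. Both ends of this range were truncated copies, Gm28439 and Gm29216. The remaining copies ran only from -0.35 (Gm10925) to -0.27 (Gm10222). The sums of the pairs ran from -0.39 ± 0.07 for mt-Nd4l with Gm10222 to -0.31 ± 0.05 for mt-Co1 with Gm29216, a span of 0.08, and 7 of 7 had every exposed dish below every control dish. In TPM the change of these sums from control to exposed means was -23.4% to -19.1%. The case of mt-Nd4l shows the step in single values. Listed alone it was at 2551, 3071, 2019 and 2086 TPM in control dishes and at 1448, 1502, 1373 and 1848 TPM in exposed dishes, and with Gm10222 added it was at 7452, 7881, 8676 and 7785 TPM against 5702, 5449, 6445 and 6752 TPM. Its log2 difference of -0.64 became -0.39, whereas for the other 6 pairs the sum moved the mitochondrial value by less than the spread between dishes.

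For mt-Co1 and Gm29216, whose own differences had opposite signs, the sum was at 16044, 15683, 15899 and 14918 TPM in control dishes and at 12687, 11525, 12919 and 13465 TPM in exposed dishes. mt-Co1 alone had a log2 difference of -0.35 ± 0.06 (SE). The 6 mitochondrial mRNAs with no annotated copy in the block had log2 differences of -0.41 ± 0.09 for mt-Nd6, -0.38 ± 0.06 for mt-Nd2, -0.35 ± 0.06 for mt-Nd5, -0.35 ± 0.06 for mt-Cytb, -0.33 ± 0.07 for mt-Nd1 and -0.32 ± 0.10 for mt-Atp8, a span of 0.09. Of these, 0 of 6 were called in either direction. Every exposed dish was below every control dish for 5 of 6, the exception being mt-Atp8, against 1.86% of all genes tested. The plot of differences shows the sums in nearly the same band as these 6 mRNAs, while the counterparts taken alone were spread more widely. The copies were spread more widely only through the truncated Gm29216 and Gm28439. The remaining copies lay between -0.35 (Gm10925) and -0.27 (Gm10222). No test of that difference in spread was made.

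**Figure D5:**
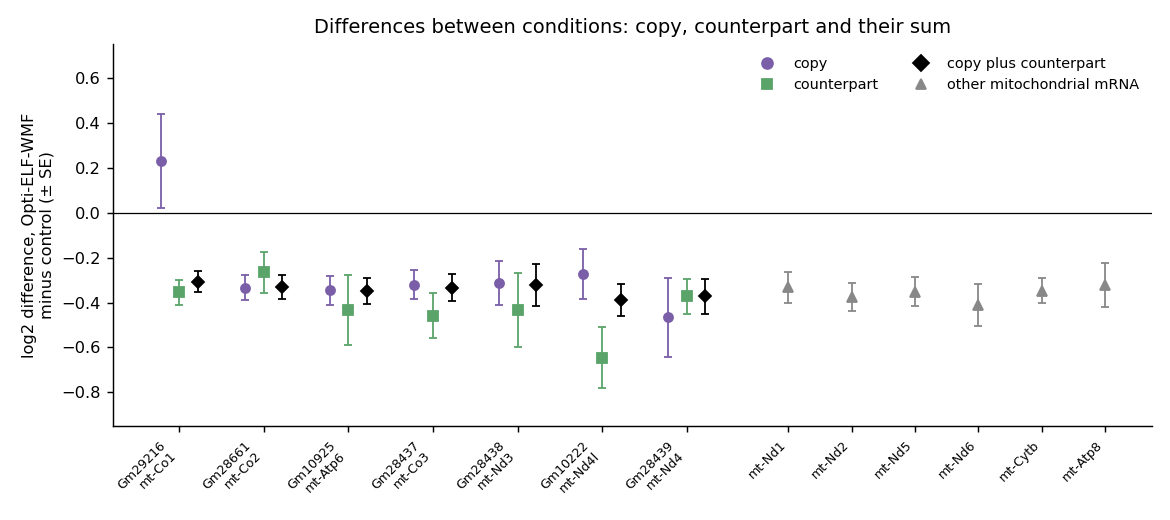
Log2 difference of TPM, Opti-ELF-WMF minus control, with SE bars, for each copy (violet circles), its counterpart (green squares), their sum (black diamonds) and the 6 mitochondrial mRNAs with no annotated copy in the block (grey triangles), n = 4 dishes per group. The sums lie between -0.39 and -0.31 and the 6 mRNAs between -0.41 and -0.32, whereas copies lie between -0.47 and 0.23 and counterparts between -0.64 and -0.27. The lowest and highest copies are the truncated Gm28439 and Gm29216.

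Mitochondrial genes under their own names made up 8.94% ± 0.34 (SD, n = 4) of all TPM in control dishes and 7.04% ± 0.76 in exposed dishes, and with the 7 copies they made up 14.1% ± 0.45 and 11.2% ± 1.13. The mitochondrial ribosomal RNAs mt-Rnr1 and mt-Rnr2, which have no annotated copy in the block, had log2 differences of -0.42 and -0.43. The genes whose log2 values followed Gm28661 most closely over the 8 dishes, out of the 12098 tested genes that remained when mitochondrial genes and copies were left out, were Rn7sk (Pearson r = 0.96), Gm42664 (0.95) and Neat1 (0.95). Rn7sk, the small nuclear RNA 7SK that is not polyadenylated, was at 25.8 TPM on average in control and 14.7 TPM in exposed dishes (8.54 to 28.2 TPM over the 8 dishes), and Neat1, a long noncoding RNA retained in the nucleus, was at 247 and 201 TPM. For the sum of the 7 copies they were Ankle1 (0.97), Rn7sk (0.96) and Mr1 (0.94). These likenesses describe 8 dishes that differ by group and were taken as the highest among all genes compared, and the part that polyadenylation or RNA quality had in them was not tested.

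As for the cells, 7 of 7 hepatocyte markers averaged at least 1 TPM, with albumin at 46.1 to 58.2 TPM. Their summed level was 5413 to 5673 TPM in control and 5765 to 5974 TPM in exposed dishes. It was higher in every exposed dish through the epithelial keratins Krt8 and Krt18. In contrast, Ttr, Trf and Hnf4a overlapped between groups, as did albumin (52.5 to 58.2 TPM in control and 46.1 to 53.0 TPM in exposed dishes) and Apoa1 (4.01 to 5.29 and 3.12 to 4.76 TPM). Of 4 bile duct cell markers, 3 averaged at least 1 TPM: Krt19 at 1101 to 1244, Krt7 at 63.5 to 75.4 and Sox9 at 29.8 to 32.1 TPM. The remaining marker of that list, Epcam, was at 0 to 0.13 TPM. The part of these markers in the values above was not tested. Of 4 Kupffer cell and macrophage markers only Cd68 averaged at least 1 TPM, with Adgre1 and Clec4f at 0, and none of 4 endothelial markers (Cdh5 at 0) or of 5 stellate cell and fibroblast markers (Lrat at 0, Col1a1 at most 1.2 TPM) did. Of 3 markers of general dedifferentiation only Vim averaged at least 1 TPM. It was at 1304 to 1401 TPM in control and 1381 to 1509 TPM in exposed dishes, above albumin in every dish. Acta2 was at most 0.35 TPM and Afp at most 1.33 TPM. The number of genes above 0 was 19386 to 20114 per dish. Sequencing depth is unknown from TPM, so no counting error can be given for any value.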

How the data were processed

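RNA of 4 control and 4 Opti-ELF-WMF dishes of AML12 cells was sequenced on a NovaSeq instrument after TruSeq Stranded mRNA preparation. The authors deposited TPM values with 2 decimals, 1 table of 55401 genes per dish. The submitters' processing notes name Trimmomatic 0.39, STAR 2.7.4a, RSEM 1.3.3 and mm10. The annotation release is not given in the sources used here. RSEM divides reads that match several transcripts by an expectation-maximization estimate, so values of near-identical genes depend on that division. Depth is unknown, and library sizes, counting intervals and count tests could not be used, so the test planned for normalized values was run.

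Genes with TPM of at least 1 in at least 4 dishes (12122) were tested on log2(TPM + 1) by limma 3.58.1 under R 4.3.3, using lmFit and a trended eBayes, and p was adjusted by Benjamini-Hochberg. Pair sums were entered as single genes in place of their 2 parts. In simulated data on 12122 genes, the fit called 194 of 200 genes changed by 1 (log2) and made 9 false calls. It called 0 genes in unchanged data. Recovery of smaller log2 changes, such as the -0.39 to -0.31 of the pair sums, was not tested. Positions and transcripts came from GENCODE M21 (55141 gene identifiers matched), and sequences were compared with BLAST 2.17.0 and by windows of 150 bases. The pairing of copies with mitochondrial genes was the best BLAST match in 7 of 7.

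The members, gene lists and tests were chosen with earlier results of these data known. The genes named are the 7 copies, the 7 counterparts, the 6 other mitochondrial mRNAs, both mitochondrial rRNAs, other near-identical nuclear copies, annotated genes within 200 kb, cell type markers, and the 3 genes most alike in pattern to Gm28661 and likewise to the summed copies, with mitochondrial genes and copies left out. 1110028F11Rik was named after its values were seen. Alternatives covered the pseudocount, the filter, scaling, limma's trend, the replicate block, summing and leaving out each dish. Replicate numbers did not pair the dishes. No 2 dishes had equal values in more than 3.79% of genes.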

Additional observations from a re-analysis of the deposited data

Results flagged for a closer look

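Values were singled out where the highest or lowest of 4 dishes lay far from the other 3, by Dixon's test of the gap against the range for 4 values. Chance alone flags about 1 in 20 groups, which is 3.6 of the 72 groups checked, and 6 were found. Gm10925 was at 13837 TPM in control dish 4, with the other control dishes at 14437 to 14543 TPM. In the same dish the sum of Gm10925 and mt-Atp6 was 14714 TPM, with the others at 15242 to 15350 TPM (15349.9 at most), and Gm10925 held 94.0% of its pair, with the others at 94.7% to 94.9%. Gm28438 was at 2683 TPM in Opti-ELF-WMF dish 2, with the other exposed dishes at 3595 to 3673 TPM. In that dish the sum of Gm28437 and mt-Co3 was 8932 TPM, with the others at 10539 to 10849.6 TPM. mt-Co2 was at 516 TPM in Opti-ELF-WMF dish 3, with the others at 618 to 622 TPM.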

How the results depend on the processing

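The count of genes with an adjusted p under 0.05 was 0 as reported and under pseudocounts of 0.1 and 0.5 and with every gene above 0 in any dish kept (25413 genes). It was 1 (1110028F11Rik, lower in exposed dishes) under upper-quartile scaling, scaling by median of ratios, TPM rescaled with mitochondrial genes and copies left out, a filter of at least 1 TPM in every dish and limma without a trend. Leaving out 1 dish gave 0 to 2 (2 without control dish 2 and 1 without control dish 3). The cause was not tested. Scaling moved the split of unadjusted calls: 443 lower and 1451 higher became 801 and 588 (upper-quartile), 755 and 673 (median of ratios) and 961 and 393 (rescaled), while it shifted the median of all genes by at most 0.045 (log2).

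The summed copies, at -0.31 (log2), ran from -0.35 to -0.25 when 1 dish was left out and from -0.36 to -0.31 otherwise. The 1.15-point difference in their share ran from 0.95 to 1.36 and from 1.15 to 1.46. There were 544 alternatives for single genes, sums, shares, spans and counts without overlap, and 541 were rated as unchanged. For a log2 difference or a share this meant a move smaller than the spread between dishes. The filters, limma without a trend and the replicate block cannot change a difference between group means, so those alternatives were fixed in advance. No log2 difference changed sign, but the small differences in share of 4 copies did when 1 dish was left out (8 alternatives): Gm28661 (-0.20 points) reached 0.06 without Opti-ELF-WMF dish 2, Gm10925 (0.15) reached -0.44, Gm28438 (0.63) reached -0.33 and Gm28439 (-0.019) reached 0.011, these 3 without Opti-ELF-WMF dish 4. Of the other 3, mt-Nd4l went to -0.39 with its copy added, the span of the counterparts went from 0.38 to 0.24 without control dish 2, and the span of the sums went from 0.08 to 0.12 without control dish 1. The alternatives for spans, for sums and for counts without overlap were chosen after seeing the data. Without overlap, 4 to 5 copies, 4 to 6 counterparts and 7 of 7 sums were lower under every scaling and every omission. Leaving out a dish cannot make separated groups overlap, so under omission these counts could only stay or rise. The share of all tested genes that were lower without overlap, 1.86% with every dish kept, was not computed for the omissions.

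Same-numbered dishes did not deviate together (r from -0.04 to 0.03, and 0 of 4 control dishes were most like their own number). With replicate number as a block, 0 genes were called. The summed copies stayed at -0.31, which a block shared equally by both groups cannot move. Pairing copies by best match gave no other value, because it was the same for 7 of 7. Without counts, depth limits are unknown, and the precision rests on 4 dishes per group.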
